A study of Mus musculus with 12 samples.

Results

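This section describes 390 genomic regions of mouse embryonic stem (ES) cells at which a peak of the retinoid X receptor (RXR) was called after treatment with LG268 and after treatment with RA, and not in the vehicle control or after GW3965. Peaks in repeat classes and on the mitochondrial genome were dropped, the 4 ES RXR peak lists were merged by overlap of at least 1 bp, and regions were kept by the lists that held them. The 390 regions are 12.5% of the 3129 merged ES RXR regions. Because the regions were chosen by the presence or absence of a called peak in the 4 ES RXR lists, their ES RXR scores are given as description only.

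RXR and H3K27ac, the acetylation of histone H3 at lysine 27 that marks active promoters and enhancers, were mapped by chromatin immunoprecipitation and sequencing (ChIP-seq). Wild-type E14 ES cells, an established mouse line grown without feeders, received vehicle (dimethylsulfoxide), GW3965, LG268 or RA at 1 µM, the labels giving 24 h for the ligands, with 1 library per antibody and condition. GW3965 is an agonist of the liver X receptor (LXR), LG268 an agonist of RXR itself, and RA is all-trans retinoic acid, the ligand of the retinoic acid receptor (RAR). Neural derivatives of the same line, made through embryoid bodies with RA at 5 µM in the protocol, were profiled for RXR at day 8 and day 16 with 2 libraries per day. Nothing in the labels ties the paired libraries of a day to independent cultures, so the spread between them may be technical. Read totals are not part of the files, which leaves sequencing depth unknown, and with 1 library per ES condition a gained site and a more deeply sequenced library cannot be told apart. Some peak numbers are also absent from the deposited RXR lists. The shares absent were 14.4% in the control list, 12.1% with GW3965, 9.29% with LG268 and 9.30% with RA. The largest was 38.2%, in day 16 replicate 2. The reason is not stated, and the effect on which regions lack a peak was not tested. After the filter the ES RXR lists held 847 peaks in the control, 642 with GW3965, 1774 with LG268 and 1650 with RA. As a check of the cell type, 12 of 22 pluripotency genes had an H3K27ac peak within 1 kb of their start site in control cells, beside 1 of 13 endoderm genes and 11 of 28 neural progenitor genes. With GW3965, LG268 and RA the pluripotency counts were 11, 7 and 6, the neural counts 8, 3 and 5, and the endoderm counts 2, 1 and 2. The H3K27ac lists with these ligands were shorter (17759, 12472 and 14958 peaks) than that of the control (21418). The part of list length in these counts was not tested.

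RXR binds DNA as a dimer with another nuclear receptor. The half-site of these dimers resembles AGGTCA, and the number of bases between the paired sites of a direct repeat (DR) is part of what selects the partner. DR1 is the classical element of RXR with the peroxisome proliferator-activated receptors (PPARs) and of RXR homodimers, DR4 that of RXR with LXR or thyroid hormone receptor, and DR2 and DR5 those of RXR with RAR. LG268 can activate the dimers in which RXR is free to respond to its own ligand, such as those with PPAR and LXR. RA activates RAR, and in pluripotent cells it induces Hox genes and its own catabolic enzymes on the way to neural fates.

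Sequence at the regions was read only where a RefSeq promoter window (250 bases before to 50 after the start site, GRCm38.p6) shared at least 100 bases with a region, which was the case for 77 windows at 64 of the 390 regions. The windows were searched on both strands for direct repeats of a half-site with 0 to 5 bases between them, where the half-site was AGGTCA or one of the related forms AGTTCA as well as GGGTCA and also GGTTCA. DR1 was found in 5 of the 77 windows (6.49%), against 73 of all 32851 promoter windows (0.222%) and 9 of 493 windows (1.83%) at all ES RXR regions. The 5 windows held 4 distinct DR1 sites, since Ranbp1 and Trmt2a share 1 site between their start sites, and 3 of the 4 lay inside the called region. No DR0, DR2, DR3, DR4 or DR5 was found in the 77 windows, and in the 493 windows at all ES RXR regions they were also rare (1, 2, 1, 1 and 3 windows). A single half-site was found in 48 of the 77 windows (62.3%), against 43.7% of all windows and 64.5% of windows at all ES RXR regions. G and C made up a median of 63.0% of bases both in the 77 windows and in the 493 windows at all ES RXR regions, against 52.7% in all windows. Windows at regions also called in the control held DR1 in 0 of 124, DR2 in 2, DR4 in 1 and DR5 in 1. Windows at regions called with LG268 alone held DR1 in 2 of 112 (1.79%), and those at regions called with RA alone held DR1 in 2 of 100 (2.00%) and DR5 in 2. A match describes letters in these windows and is not a measured site.

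The promoters shown are those with a DR1 inside the called region, and that of Tomm20, where H3K27ac was called with both ligands and not in the control. All are on the minus strand of GRCm38.p6 and read 5′ to 3′ in the direction of the gene, with the half-sites in capitals. They are the stretch chr11:33513785-33513903 upstream of Ranbp17, which encodes a nuclear transport receptor, chr16:18248695-18248844 upstream of Ranbp1, which encodes a regulator of the GTPase Ran, chr13:73328447-73328475 just after the start of Ndufs6, which encodes a subunit of mitochondrial complex I, and chr8:126945922-126946071 upstream of Tomm20, which encodes a receptor of the mitochondrial import machinery. In the Tomm20 stretch the capitals mark 1 half-site read on the opposite strand.
Ranbp17: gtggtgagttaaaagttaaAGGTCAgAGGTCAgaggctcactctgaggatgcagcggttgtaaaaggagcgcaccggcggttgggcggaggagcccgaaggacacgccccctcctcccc
Ranbp1: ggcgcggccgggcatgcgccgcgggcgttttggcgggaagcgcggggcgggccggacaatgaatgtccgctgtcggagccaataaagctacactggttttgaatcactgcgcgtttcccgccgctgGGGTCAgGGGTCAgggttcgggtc
Ndufs6: gacgcgtgGGGTCAaGGGTCAccggcaag
Tomm20: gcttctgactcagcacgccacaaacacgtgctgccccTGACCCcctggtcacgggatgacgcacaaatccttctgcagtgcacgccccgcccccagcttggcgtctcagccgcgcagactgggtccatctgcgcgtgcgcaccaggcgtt

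At the Ranbp17 promoter the RXR peak had a score of 8.81 with LG268 and 6.82 with RA, and no H3K27ac or day peak overlapped it. The Ranbp1 promoter scored 9.68 with LG268 and 2.95 with RA, carried H3K27ac in all 4 conditions (25.65 in the control, 29.72 with GW3965, 19.93 with LG268 and 13.45 with RA) and had an RXR peak at day 8 in replicate 2 only. The Ndufs6 promoter scored 3.06 with LG268 and 4.65 with RA, with H3K27ac scores of 20.82, 10.03, 10.65 and 6.64 in the control, GW3965, LG268 and RA lists. Each score is the peak score the authors gave. Its scale between libraries is not stated, so a score is read here by its rank or percentile within its own list. By that measure Ranbp1 was much higher in the LG268 list (percentile 71.2) than in the RA list (percentile 2.56).

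The 390 regions were of middling height in both lists that defined them. Their LG268 scores ran from 1.99 to 29.56 with a median of 6.82, and their RA scores from 2.12 to 37.09 with a median of 6.63, at the median percentiles 50.3 of the LG268 list and 43.7 of the RA list. The 473 regions called in the control, LG268 and RA lists, with or without GW3965, stood higher, at the median percentiles 75.8 and 73.9. The 754 regions called with LG268 alone and the 633 called with RA alone stood lower, at 29.3 and 29.7. Peaks were merged by overlap, so the LG268 and RA peaks of a region lie close together by the rule. Their midpoints were a median of 34.5 bp apart and at most 238.5 bp. Heights were only loosely related across the 390 regions, which share both libraries (Spearman rho 0.189, Pearson r of log2 scores 0.219). The rule had set aside the regions with a control peak, which stood higher in both lists. These coefficients therefore do not describe all regions shared by LG268 and RA. In all, 95 regions were in the upper 50% of both lists, 127 in the lower 50% of both, 80 stood more than 30 percentile points higher in the LG268 list and 63 more than 30 points higher in the RA list.

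**Figure D1:**
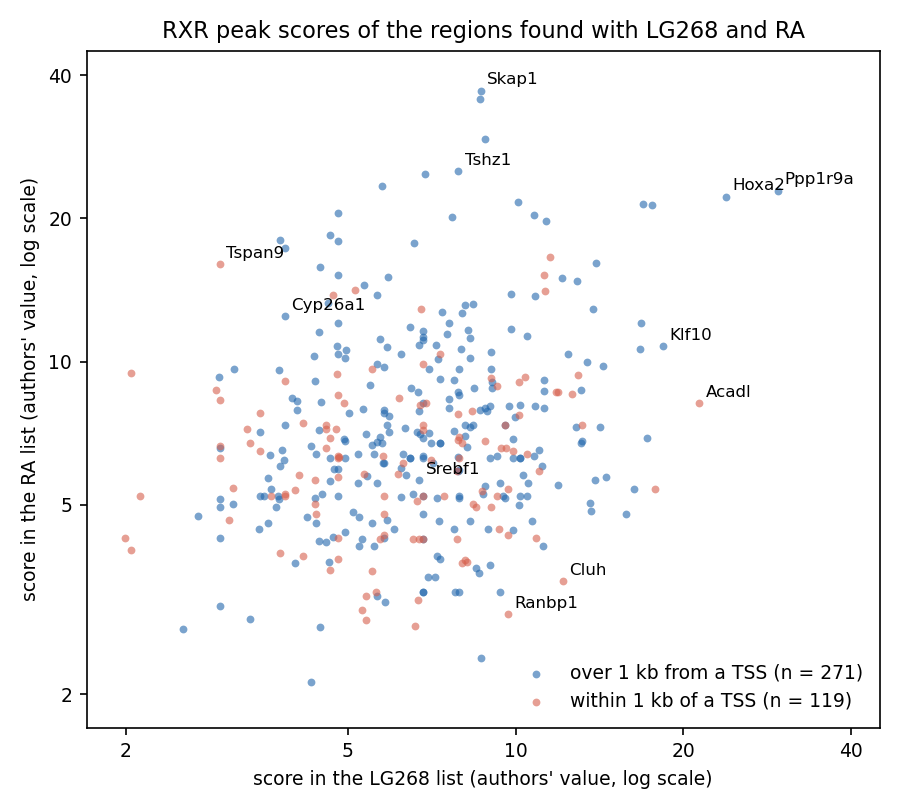
Authors' peak score in the LG268 list (x axis, log scale) against that in the RA list (y axis, log scale) for the 390 regions, 1 point per region, coloured by whether it lies within 1 kb of a start site (119) or not (271). The points spread widely about the diagonal (Spearman rho 0.189), from Acadl, high with LG268, to Skap1, high with RA. Regions with a control or GW3965 peak are not drawn, so the spread is that of the chosen regions only.

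The border of the rule runs through weak peaks. Of the regions with peaks in both the LG268 and RA lists and none in the control list, 34 were outside only because of a GW3965 peak, whose scores had a median of 6.23 and a lowest value of 2.64. Among the 473 regions with a control peak the control score was as low as 2.15, and 58 were below 5. At 9 of the 390 regions a control or GW3965 peak was present in the deposited lists but had been dropped for its repeat class, 8 of them control peaks and 2 GW3965 peaks. These regions are nearest to Ppp1r9a, Gtf2i, Ldhal6b (2 regions), Fbxw11, Efhd2, Zmiz1, Etl4 and 9530036O11Rik, and leaving them out gives 381 regions. When all 4 ES RXR lists were cut to equal length by score, 93 regions met the rule.

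Most of the regions lay away from promoters, as did most ES RXR regions as a whole. By the deposited annotation 140 were intronic (35.9%, beside 36.5% of all ES RXR regions), 140 intergenic (35.9%, beside 37.6%) and 86 in promoters (22.1%, beside 20.3%). A further 12 were in exons (3.08%, beside 1.69%), 7 in 5′ UTRs, 3 at transcription ends, 1 in a 3′ UTR and 1 in a non-coding transcript. The median distance to the nearest start site was 15262 bp, beside 14039 bp for all ES RXR regions. More than 100 kb away were 57 regions (14.6%, beside 13.1%). Within 1 kb of a start site lay 119 regions (30.5%, exact 95% interval 26.0% to 35.3%), close to the 28.2% of all ES RXR regions. This was a lower share than the 38.3% of regions also called in the control (odds ratio 0.708, Fisher's exact test, two-sided and over regions, Benjamini-Hochberg adjusted p = 0.0470 over 21 tests). Without the 9 regions that held a dropped peak the adjusted p was 0.0958 (odds ratio 0.733), and with no class dropped the odds ratio was 1.05. The share was not distinguished from the 33.2% at regions called with LG268 alone (odds ratio 0.885, conditional exact interval 0.673 to 1.16) or the 28.0% at regions called with RA alone (odds ratio 1.13, interval 0.849 to 1.51). All these tests compare regions within single libraries and not treatments. Chromosome 11 held the most regions, 43 (11.0%), beside 13.0% of all ES RXR regions.

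The rule removed regions that hold a control peak, and the nearest control RXR peak was a median of 456277 bp away. A control peak lay within 100 kb of 76 regions (19.5%), among them those of Skap1 (3563 bp), Cdk5rap3 (3688 bp), 2700086A05Rik (7126 bp) and Hoxa2 (22074 bp). Within 100 kb of a start site, 333 regions had 324 nearest genes, of which 37 (11.4%) also had a region called in the control. No such shares are given for other sets of ES RXR regions. Whether nearness to control peaks is particular to the regions described here was therefore not tested. Of 376 nearest genes at any distance 14 had 2 regions, among them the transcription factor genes Meis2 and Mecom.

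The region that ranked highest in the lower of its 2 ranks was in intron 2 of Ppp1r9a, which encodes the actin-binding synaptic protein neurabin (chr6:4923700-4924326). It scored 29.56 with LG268 and 22.86 with RA, had H3K27ac scores of 8.26, 7.57, 4.82 and 7.73 in the control, GW3965, LG268 and RA lists, and kept an RXR peak in all 4 day libraries (37.35 and 43.03 at day 8, 39.26 and 32.77 at day 16). It is also the region at which both a control and a GW3965 peak had been dropped for their class. The second was upstream of Hoxa2, a homeobox gene of hindbrain patterning, 10705 bp before its start and in an intron of an overlapping transcript (chr6:52175349-52175706). It scored 23.87 with LG268 and 22.23 with RA, and carried an H3K27ac peak in the RA list only (5.26). Its day 8 scores were 64.12 and 86.28, and at day 16 it had a peak in replicate 1 only (3.55). Ppp1r9a and Hoxa2 were the 2 regions in the top 10% of both lists.

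Further regions high in both lists lay near Fignl1, a AAA ATPase gene of DNA repair, and near Gpr37l1, a receptor gene of glia. The Fignl1 region (chr11:11822555-11822913) scored 17.53 with LG268 and 21.29 with RA, held H3K27ac in all 4 conditions (11.45, 16.87, 5.47 and 13.81) and scored 21.19 and 43.03 at day 8. The Gpr37l1 region scored 16.90 and 21.42 and overlapped no peak of any other library. High regions thus had either pattern, with and without acetylation and later RXR.

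Of the genes known to respond to RA, Meis2 had 2 regions. The homeobox protein Meis2 is a partner of Hox proteins. Its intron 7 region (chr2:116021091-116021364) scored 5.76 with LG268 (percentile 36.7 of its list) and 23.39 with RA (percentile 91.6), with H3K27ac in the GW3965 (5.02) and RA (6.31) lists and a day 8 peak in replicate 2 only (9.51). Its intron 9 region (chr2:115869200-115869472) lay 195285 bp from the start site and had the reverse order. The scores there were 10.72 with LG268 (percentile 75.6) and 4.63 with RA (percentile 17.9). It had day 8 peaks in both replicates (4.82 and 16.21) and no H3K27ac peak. Dhrs3, which encodes an enzyme that reduces retinal, had a region in intron 2 scoring 5.56 with LG268 and 4.09 with RA, and 8.74 in day 8 replicate 2. Gbx2, a homeobox gene of the midbrain-hindbrain border, had a region scoring 7.16 and 3.53, and 7.12 and 20.80 at day 8. Dhrs3 is also the nearest gene of 2 control peaks, the higher (33.57) 141676 bp from its start site. Neither the Dhrs3 nor the Gbx2 region overlapped H3K27ac in any condition.

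Beyond 100 kb the nearest genes included Cyp26a1, which encodes the enzyme that clears RA, Meis1 and Nr2f2. The Cyp26a1 region (chr19:37814477-37814818), 116835 bp from the start site, scored 3.85 with LG268, 12.45 with RA, and 11.35 and 42.33 at day 8. The Meis1 region in intron 9 scored 7.31 and 9.20, and 26.74 and 37.43 at day 8. The Nr2f2 region, 257957 bp before the gene of the orphan receptor COUP-TFII, scored 5.34 and 14.48, had H3K27ac with RA only (7.63) and a day 8 peak in replicate 2 only (7.98). Cyp26a1 and Meis1 each also had a region called in the control elsewhere, and Nr2f2 had none. The highest RA score of all was in intron 4 of Skap1, an adaptor gene of T cells that neighbours the Hoxb cluster (chr11:96579015-96579359). It was 37.09 with RA and 8.67 with LG268, with 62.76 and 99.81 at day 8 and no H3K27ac peak.

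Genes of fatty acid metabolism and of PPAR response included Acadl and Klf10. Acadl encodes the mitochondrial long-chain acyl-CoA dehydrogenase. Its region in intron 1, 432 bp from the start site (chr1:66862718-66863018), ranked 176 with LG268 (21.34) and 791 with RA (8.17), and carried H3K27ac in all 4 lists (23.04, 8.79, 7.02 and 5.56) with no day peak. Klf10, a transcription factor gene, had a region in intron 1 (chr15:38299399-38299656) scoring 18.39 and 10.79, acetylated in all 4 lists (24.00, 16.27, 8.97 and 19.21), with day 8 scores of 3.41 and 18.01. Both regions were thus acetylated in vehicle-treated cells. The promoter of Hadh, which encodes another enzyme of mitochondrial fatty acid oxidation, scored 10.13 and 9.08 and held H3K27ac in the control (12.87) and RA (14.29) lists only.

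Among receptors, coregulators and LXR targets, the promoter of Ncor1, a corepressor of unliganded receptors, scored 5.34 with LG268 and 5.80 with RA. Its H3K27ac scores of 51.93, 36.23, 20.95 and 18.76 put it between the percentiles 98.97 (control) and 88.9 (RA) of the acetylation lists, and it had a day 8 peak in replicate 2 only (5.13). The promoter of the coactivator gene Ncoa3 scored 6.67 and 3.16, with H3K27ac in the GW3965 (13.36) and RA (11.50) lists only. Srebf1, the LXR target gene that drives fatty acid synthesis, had a region 2473 bp before its start (chr11:60222785-60223292) scoring 6.72 and 5.63, acetylated in the control (7.82) and GW3965 (5.71) lists, with 12.26 and 30.96 at day 8. Srebf1 and Ncoa3 each had a separate region called in the control.

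The neural and endoderm genes included Hes1, Mnx1 and Sox7, all transcription factor genes. The Hes1 region scored 5.80 and 4.25, and 6.33 and 4.47 at day 8. The Mnx1 region scored 9.98 and 7.64, with H3K27ac in the GW3965 list only (4.23) and a day 8 peak in replicate 2 only (11.92). The Sox7 region scored 6.83 and 4.79, and 6.33 and 9.51 at day 8. None of these 3 was acetylated with LG268 or RA.

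Counted by the lists, 15 of the 324 nearest genes within 100 kb were in 1 of the 8 gene lists (4.63%), beside 3.59% of the 2339 nearest genes of all ES RXR regions. The regions supplied 3 of the 21 RAR targets with an ES RXR region, 1 of 13 LXR targets, 3 of 15 PPAR and fatty acid oxidation genes, 1 of 7 Hox genes, 3 of 13 receptor and coregulator genes, 3 of 6 neural genes, 1 of 4 endoderm genes and 0 of 8 pluripotency genes. The 324 genes are 13.9% of the 2339 nearest genes of all ES RXR regions, which is the share to set these counts against. The counts are small and carry no test.

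**Figure D2:**
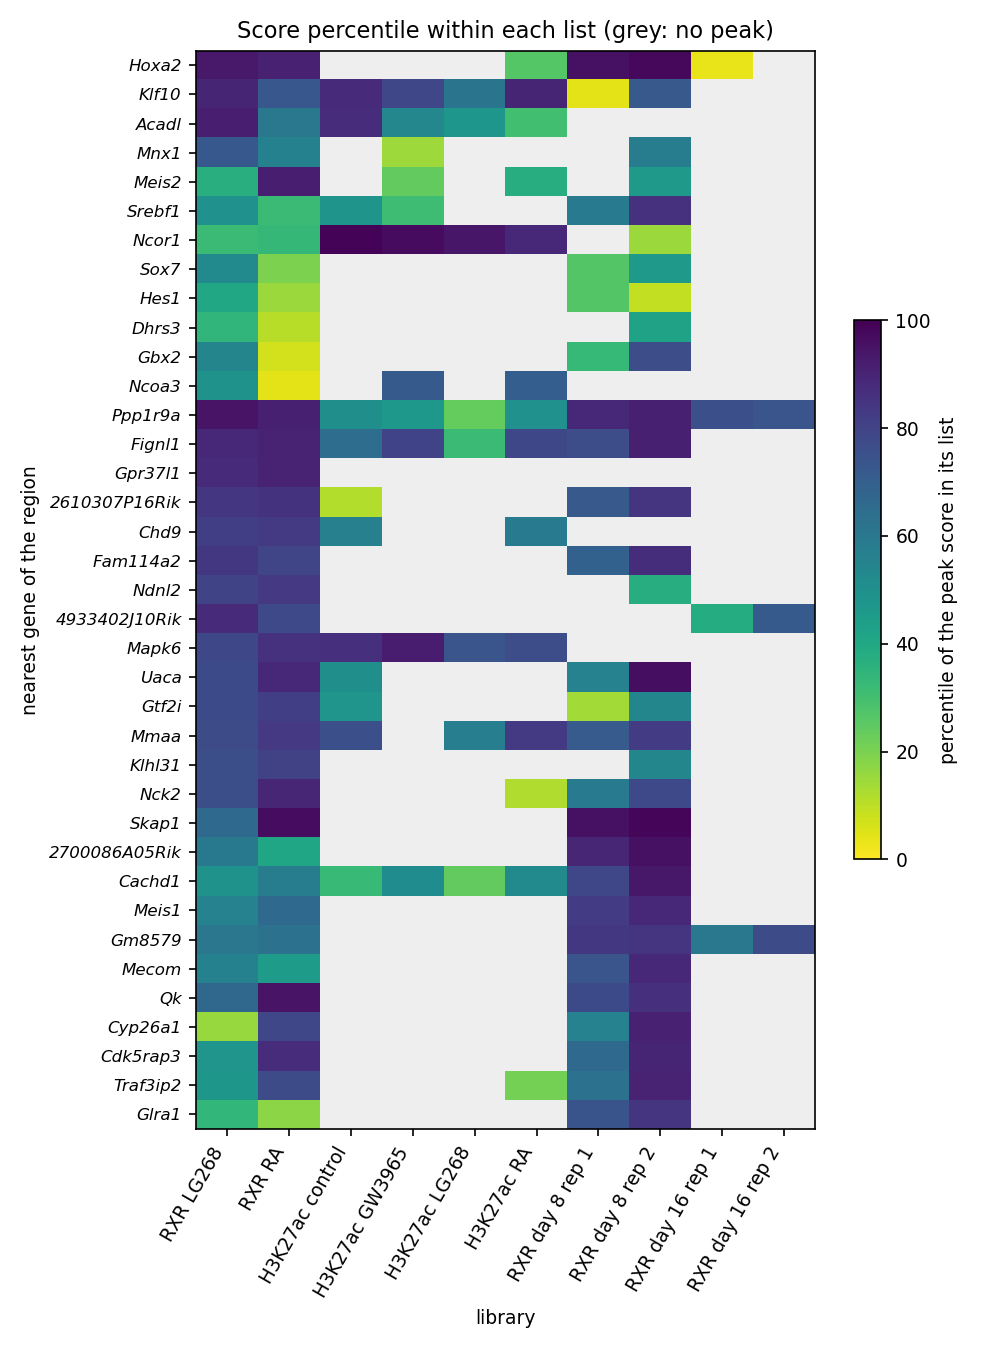
Percentile of the peak score within its own list (colour scale, 0 to 100) for 37 of the named regions (rows, by nearest gene) in 10 libraries (columns), with grey where no peak was called. Acetylated regions such as Klf10 and Ncor1 keep H3K27ac in all 4 columns, and day 8 columns are filled far more often than day 16 columns.

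H3K27ac was measured separately from the rule. In control cells 137 of the 390 regions overlapped an H3K27ac peak (35.1%, 30.4% to 40.1%), beside 28.8% of all ES RXR regions. The counts were 130 with GW3965 (33.3%, beside 26.0%), 99 with LG268 (25.4%, beside 20.3%) and 122 with RA (31.3%, beside 24.4%). The share was lowest in the LG268 list, the shortest H3K27ac list. The 390 regions are also wider than ES RXR regions as a whole (median 288 bp against 238 bp), and the difference from that whole was not tested. In all, 81 regions were in all 4 H3K27ac lists (20.8%, beside 16.5%) and 228 in none (58.5%, beside 65.7%).

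Few regions had an H3K27ac peak with a ligand and none in the control. The LG268 list and not the control list held one at 6 regions (1.54%, beside 1.31% of all ES RXR regions), and the RA list and not the control list at 14 (3.59%, beside 2.94%). With either ligand the count was 18 (4.62%, beside 3.64%), and 27 with the H3K27ac lists cut to equal length. The opposite was more frequent, with 44 regions acetylated in the control and not with LG268 (11.3%, beside 9.81%) and 29 not with RA (7.44%, beside 7.35%). Of the 137 regions acetylated in the control, 93 were found again with LG268 (67.9%, 59.4% to 75.6%), 108 with RA (78.8%, 71.0% to 85.3%) and 115 with GW3965 (83.9%, 76.7% to 89.7%). Regions also called in the control for RXR gave 69.8%, 78.6% and 79.7%, and all control H3K27ac regions 52.2%, 60.3% and 68.5%. The H3K27ac lists differ in length (21418 peaks in the control, 17759 with GW3965, 12472 with LG268 and 14958 with RA). With all 4 cut to equal length by score, 27.9% of the 390 regions overlapped H3K27ac in the control, 27.9% with GW3965, 25.4% with LG268 and 27.4% with RA, a narrower spread than with the full lists.

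The regions where acetylation was called with both ligands and not in the control were those of Tomm20 and Erdr1. Tomm20, whose promoter sequence is shown above, scored 8.39 for RXR with LG268 and 5.01 with RA, and 6.42 and 6.41 for H3K27ac. With LG268 and not RA the genes were Ppp1r15b, Slc1a3, Tcf7l2 and Ptpla. Ppp1r15b, which encodes a regulatory subunit that reverses the block of translation under stress, had by far the highest of these H3K27ac scores (30.11 with LG268), but also a GW3965 peak (3.73). Ptpla had a GW3965 peak too (3.30), and so had the Meis2 and Ncoa3 regions named next. With RA and not LG268 the 12 genes were Hoxa2, Nck2, Traf3ip2, Trim47, Myo3a, Zc3h15, Meis2, Ncoa3, Amz1, Stard13, Mrps33 and Nr2f2. Of these, Nck2, an adaptor gene of receptor signalling, scored 10.79 for RXR with LG268 and 20.31 with RA, 4.01 for H3K27ac with RA, and 12.26 and 21.75 at day 8. Traf3ip2, an adaptor gene of interleukin signalling, scored 6.47 and 11.85, 4.75 for H3K27ac with RA, and 13.17 and 39.43 at day 8.

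Compared with regions called with RA alone, the 390 regions overlapped H3K27ac more often in all 4 conditions. In the control list the shares were 35.1% and 25.1% (odds ratio 1.61, Fisher's exact test, adjusted p = 0.00278), with GW3965 33.3% and 23.1% (1.67, adjusted p = 0.00198), with LG268 25.4% and 18.0% (1.55, adjusted p = 0.0165) and with RA 31.3% and 22.0% (1.62, adjusted p = 0.00398). The 390 regions are also wider (median 288 bp against 202 bp). With a fixed window of 200 bp about each midpoint, an alternative chosen after seeing the data, the odds ratios were 1.37 for the control, 1.39 for LG268 and 1.37 for RA, and these 3 differences no longer passed Fisher's exact test (adjusted p = 0.107, 0.116 and 0.108), while that for GW3965 did. Among regions over 1 kb from a start site the odds ratios were 2.54, 2.55, 2.58 and 2.65 for the control, GW3965, LG268 and RA lists (Fisher's exact test, adjusted p from 0.000548 to 0.00857), and in the upper 50% of scores they were 3.19, 2.11, 3.14 and 3.26. Against regions also called in the control (odds ratios 0.762 to 0.891, adjusted p from 0.190 to 0.502) and regions called with LG268 alone (1.04 to 1.26, adjusted p from 0.197 to 0.793) no difference in H3K27ac passed the test.

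Acetylation went with promoters. Among the 119 regions within 1 kb of a start site 76.5% overlapped control H3K27ac, and among the 271 others 17.0% (odds ratio 15.9, Fisher's exact test, adjusted p = 4.27e-29 over 6 tests chosen after seeing the data). With LG268 the shares were 61.3% and 9.59%, and with RA 68.9% and 14.8%. Other sets of ES RXR regions showed the same contrast in control H3K27ac. The shares near and far from start sites were 75.7% and 18.8% at regions also called in the control. They were 71.2% and 15.9% at regions called with LG268 alone, and 70.6% and 7.46% at regions called with RA alone. The contrast was thus not particular to the regions described here. Examples among the 119 regions near start sites are Mapk6, a kinase gene, and Mmaa, a gene of cobalamin metabolism. The Mapk6 promoter (chr9:75409763-75410060) scored 11.54 with LG268 and 16.57 with RA, with H3K27ac scores of 22.56, 26.73, 11.32 and 13.26. The Mmaa promoter (chr8:79294718-79294989) scored 11.22 and 15.17, had H3K27ac in the control (15.67), LG268 (8.24) and RA (15.58) lists, and scored 16.96 and 26.65 at day 8.

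**Figure D3:**
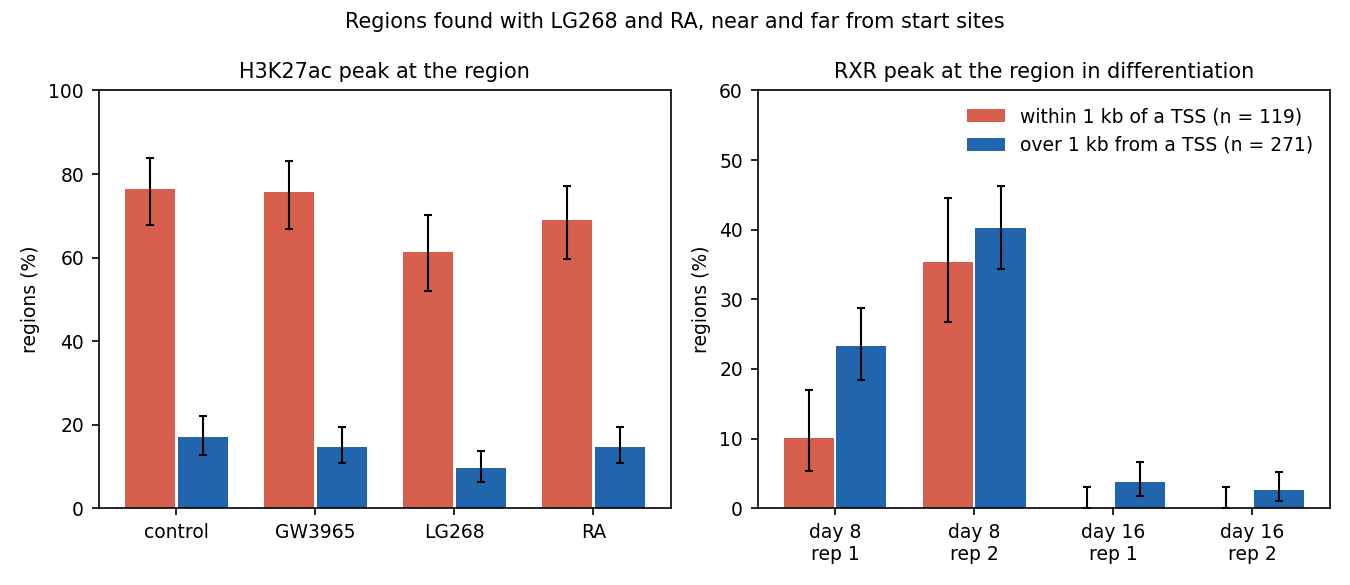
Share of the regions (y axis, percent, with exact 95% intervals) that overlap an H3K27ac peak in each condition (left) or an RXR peak in each day library (right), for the 119 regions within 1 kb of a start site and the 271 farther away. H3K27ac shares are far higher near start sites (76.5% against 17.0% in the control). Other sets of ES RXR regions, not drawn here, had the same contrast in control H3K27ac. The day 8 shares near and far from start sites are 10.1% and 23.2% in replicate 1 and 35.3% and 40.2% in replicate 2.

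RXR at the 390 regions was seen again at day 8 far more than at day 16. At day 8, 75 regions overlapped an RXR peak in replicate 1 (19.2%, beside 13.8% of all ES RXR regions) and 151 in replicate 2 (38.7%, beside 24.7%). At day 16 the counts were 10 (2.56%, beside 4.09%) and 7 (1.79%, beside 3.29%). The day 8 mean was 29.0% ± 13.8 (SD, n = 2) and the day 16 mean 2.18% ± 0.544 (SD, n = 2), and no day 8 value overlapped a day 16 value. The two-sided exact permutation test gave p = 0.333, the smallest that 2 libraries against 2 allow. The lists themselves differ in the same direction, with 1154 and 2044 peaks at day 8 and 429 and 409 at day 16, and the part of list length was not tested.

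A peak in both day 8 replicates was found at 67 regions (17.2%, 13.6% to 21.3%, beside 13.1% of all ES RXR regions). In replicate 2 alone there were 84 more, and in replicate 1 alone 8. The share was far above the 2.92% of regions called with LG268 alone (odds ratio 6.90, Fisher's exact test, adjusted p = 3.22e-15) and below the 35.1% of regions also called in the control (odds ratio 0.384, adjusted p = 2.65e-08). It was not distinguished from the 15.6% of regions called with RA alone (odds ratio 1.12, conditional exact interval 0.783 to 1.59, adjusted p = 0.598). This last comparison depended on the replicates: counting a peak in either replicate gave 40.8% against 27.6% (odds ratio 1.80, Fisher's exact test, adjusted p = 0.000104), and without replicate 1 the odds ratio was 1.73 (adjusted p = 0.000385). At day 16 both replicates held 6 regions (1.54%, beside 2.91%), below the 10.6% of regions also called in the control (odds ratio 0.132, Fisher's exact test, adjusted p = 1.14e-07) and not distinguished from regions called with LG268 alone (0.928%) or RA alone (1.26%).

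**Figure D4:**
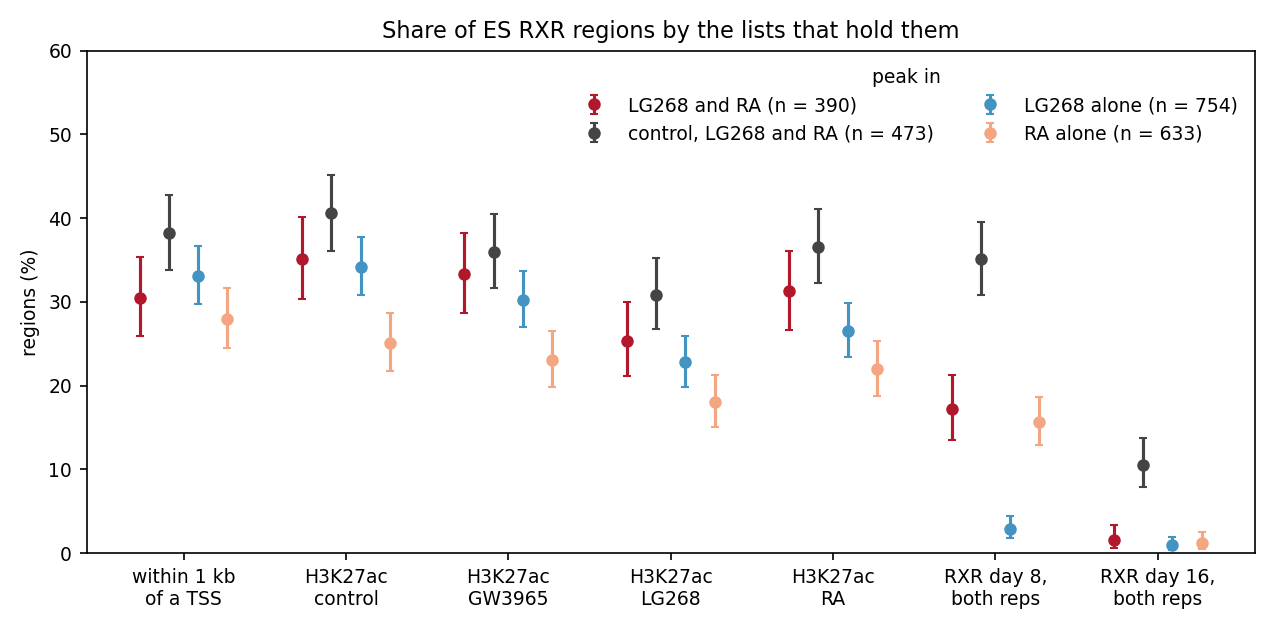
Share of regions (y axis, percent, with exact 95% intervals) within 1 kb of a start site, overlapping H3K27ac in each ES condition, and overlapping RXR in both replicates of day 8 or day 16, for the 390 regions and 3 other sets of ES RXR regions (colours). For control H3K27ac the 390 regions (35.1%) lie above regions called with RA alone (25.1%). The sets lie furthest apart at day 8, where the 390 regions (17.2%) lie near regions called with RA alone (15.6%), far above regions called with LG268 alone (2.92%) and below regions also called in the control (35.1%).

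By mean day 8 score over both replicates the highest 3 regions lay in or beside Hox clusters. After Skap1 and Hoxa2, described above, came 2700086A05Rik, a non-coding gene within the Hoxa cluster (chr6:52197409-52197676), with ES scores of 7.89 with LG268 and 6.29 with RA and day 8 scores of 39.18 and 60.22. Further down the order, Qk, which encodes an RNA-binding protein of glia, scored 8.81 and 29.37, and 21.99 and 32.83 at day 8. Cdk5rap3, a gene of protein UFMylation, scored 6.57 and 17.75, and 14.29 and 39.38 at day 8. None of these 5 regions overlapped control H3K27ac, whereas 4 others high in the same order did (Ppp1r9a, Uaca, Cachd1 and Fignl1, at 8.26, 8.26, 5.77 and 11.45). The higher Uaca region scored 11.32 and 19.70, and its day 8 scores were 11.35 (percentile 55.7) and 66.41 (percentile 96.4).

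The 67 regions found in both day 8 replicates stood higher in the RA list (median percentile 59.4) than the 231 without a day 8 peak (40.6), and at a more similar place in the LG268 list (52.4 and 48.0). They were less often within 1 kb of a start site: 12 of the 119 promoter regions (10.1%) and 55 of the 271 others (20.3%) had a peak in both day 8 replicates (odds ratio 0.440, Fisher's exact test, adjusted p = 0.0160 over the same 6 tests). By replicate the shares were 10.1% and 23.2% in replicate 1 and 35.3% and 40.2% in replicate 2, which were not tested separately. Control H3K27ac overlapped 19 of the 67 (28.4%, 18.0% to 40.7%) and 79 of the 231 (34.2%, 28.1% to 40.7%), intervals that overlap.

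The 6 regions with a peak in both day 16 replicates were nearest to Ppp1r9a, Gm8579, 4933402J10Rik, Cyp51, Gm17455 and 2700054A10Rik, and none was within 1 kb of a start site. Gm8579 scored 28.40 and 29.70 at day 8 and 23.29 and 37.48 at day 16. The 4933402J10Rik region scored 16.76 with LG268 and 12.06 with RA in ES cells, had no day 8 peak, and scored 11.76 and 29.72 at day 16. Cyp51 encodes an enzyme of cholesterol synthesis. Repeat classes made up 58.5% and 62.6% of the day 16 lists. With the same classes dropped there, an alternative chosen after seeing the data, 1.28% of the 390 regions and 0.133% of the 754 regions called with LG268 alone had a peak in both day 16 replicates (odds ratio 9.78, Fisher's exact test, adjusted p = 0.0455). These shares rest on very few regions. Of 9 alternatives for this comparison 8 kept the main result, which did not pass. Against RA alone the same filter gave an odds ratio of 2.04 (Fisher's exact test, adjusted p = 0.436).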

How the data were processed

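RXR and H3K27ac ChIP-seq peak lists of 12 libraries were used. MACS2 2.0.10, HOMER 4.2 and BWA 0.6.0 are listed in the submitters' processing notes, with mm9 and mm10 as builds and no role for either. Per the file headers, peaks were annotated in mm10, 1 list per library, and carry a score set by the authors. How that score compares across libraries is not given in the sources used here. The nearest gene, location class and distance to the start site are deposited values.

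The members, gene lists and tests were chosen with earlier results of these data known. Peaks annotated as Simple_repeat, Satellite, Low_complexity, rRNA, LTR, SINE or LINE, and mitochondrial peaks, were dropped from the ES RXR lists (15.1% to 31.7% of peaks). Other lists were used whole. Overlap was at least 1 bp. A gene counted if it was the annotated nearest gene within 100 kb. Shares carry exact (Clopper-Pearson) 95% intervals, which cover counting error only, since depth is unknown. Location, H3K27ac and day peaks were tested on regions with two-sided Fisher's exact tests, Benjamini-Hochberg adjusted over 21 tests with a threshold of 0.05. The permutation test over day libraries was exact.

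Named genes are the nearest genes of the 15 regions ranking highest by the worse of both ranks, of members of the gene lists, of regions with ligand and no control H3K27ac, of the 15 highest regions seen in both replicates of a day, and of the 10 highest promoter regions. The genes with a DR1 site, those at regions holding a dropped peak, and Cyp51, Gm17455 and 2700054A10Rik (day 16) were otherwise named after their values were seen. Some genes the rule names are left out here. The overlap and test code was tested on simulated data. Alternatives covered class filters, merging within 1 kb, 50% reciprocal overlap, equal list length, the upper 50% of scores, other windows, each day replicate and a replicate block. Tests used scipy 1.17.1 and tables pandas 2.3.3 with numpy 2.4.6, in Python 3.11.15, and plots matplotlib 3.10.9.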

Additional observations from a re-analysis of the deposited data

How the results depend on the processing

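The number of regions depended on the score threshold: 95 remained in the upper 50% of both lists and 93 with lists of equal length, against 370 to 423 under the other ways of merging and filtering. The first alternative left 2 gained H3K27ac calls (27 with H3K27ac lists of equal length, 18 with the full lists), and genes within 10 kb left 7 list genes. Of 156 alternative values 138 kept the main reading. For tests this meant the same direction and side of the threshold. For the day difference it meant the same direction, and for counts a size within a fixed fold of the main count. Of the 8 tests that passed, 4 did so under every alternative run. These were day 8 against regions also called in the control and against LG268 alone, day 16 against regions also called in the control, and H3K27ac with GW3965 against RA alone. The promoter share against regions also called in the control gave an odds ratio of 1.05 with no class dropped and 0.733 without regions holding a dropped peak. H3K27ac against the same regions passed in the upper 50% of scores for GW3965 (0.528) and LG268 (0.469), and within 500 bp for LG268 (0.702) and RA (0.691). With 200 bp windows it was 1.04 for GW3965. Against LG268 alone, the control H3K27ac odds ratio was then 0.901, and against RA alone those for control, LG268 and RA were 1.37, 1.39 and 1.37. Day 8 against RA alone gave 1.80 with either replicate and 1.20 to 1.73 with 1 replicate left out. Day 16 against LG268 alone gave 9.78 with day peaks filtered by class. Apart from the windows and filters themselves, the cause was not tested.

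The difference between day 8 and day 16 was 26.8 percentage points, with 16.7 to 36.9 when 1 replicate was left out. The replicate 1 minus 2 difference at day 8 was not correlated with that at day 16 (r = -0.00479 over 1860 regions). This cannot decide whether the numbers pair the samples, since the day 16 lists held only 429 and 409 peaks. With a replicate block the difference was 26.8 points (exact p = 0.5, the smallest that 2 pairs allow). Depth is unknown and some peak numbers are absent from the lists, so an absent peak does not show absent binding. For day 16 promoter regions, 0 of 119 allows a share of up to 2.52% by 3 counts, or 3.05% by the exact interval, for counting error only.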
